A study of Drosophila melanogaster with 7 samples.

Results

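The regions described here are the centromere-proximal ends of 4 chromosome arms of Drosophila melanogaster. A peak belonged to them if its midpoint lay above 21000000 on 2L, above 22500000 on 3L, below 2000000 on 3R or above 20400000 on X, as deposited by the authors (sequence names of genome release 5). The rule used position alone and no measured value. It took 1635 of the 40204 peaks in the 7 lists, and 20970 further peaks lay on the rest of the same 4 arms, which is the region of comparison throughout. The proximal windows were 2.01 Mb of 2L, 2.03 Mb of 3L, 2.00 Mb of 3R and 2.02 Mb of X, in all 8.06 Mb against 89.8 Mb of the rest. Arm 2R was not in the rule and was not analysed here.

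The peaks come from chromatin immunoprecipitation sequencing (ChIP-seq) of Kc167, an established embryonic cell line of the fly. Cultured cells were fixed with 1% formaldehyde, labelled with propidium iodide and an antibody to phosphorylated histone H3, and separated into an interphase and a mitotic population. CP190, dCTCF and BEAF were profiled in both populations and Su(Hw) in mitosis, with 1 library per group. All groups share the cell line, the fixation and the sort, and the sorting antibody and its anti-rabbit reagent were in the chromatin before the precipitation. The CP190, BEAF and Su(Hw) antibodies came from rabbit whereas those for dCTCF were mixed from guinea pig and rat.

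Insulator proteins mark boundaries and contacts between domains of chromatin. BEAF, dCTCF (the fly homolog of CTCF) and Su(Hw) bind DNA by themselves, and CP190 is a zinc-finger cofactor that joins their sites, often at promoters. Next to each centromere lies pericentric heterochromatin, which is rich in repeated sequence and silencing marks, and the arms pass into it near their proximal ends. In mitosis most transcription stops and many factors leave the condensed chromosomes, so a site that keeps its protein is called retained. Here an interphase peak counted as retained if that protein's mitotic list had a peak overlapping it by at least 1 bp, and peaks of different lists that overlapped by at least 1 bp counted as co-occupied.

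Since every group is 1 library, differences could not be set against a spread between replicates and no test was run. Sites of a library do not stand in for replicates, and the 95% intervals cover counting error only. Read depth is unknown, so a missing peak is a site not called, which leaves unknown whether protein was there. The lists held between 43 proximal peaks, for mitotic Su(Hw), and 449, for interphase CP190. A run of evenly spaced, wide mitotic dCTCF peaks of 122.74 kb on 2L, called the repeat block here, held 120 of the 1635 peaks and was described after the data were seen, so values are also given without it where it changes them.

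CP190 peaks were sparser at the proximal ends than on the rest of the arms, while BEAF and dCTCF peaks were not. In interphase CP190 had 449 peaks there, 55.7 per Mb against 87.6 per Mb on the rest, a ratio of 0.636 (95% interval 0.577 to 0.700). BEAF had 419 interphase peaks, 52.0 per Mb against 45.2 per Mb, a ratio of 1.15 (1.04 to 1.27), or 1.11 (0.999 to 1.23) without the repeat block. dCTCF had 200 interphase peaks, 24.8 per Mb against 23.6 per Mb, a ratio of 1.05 (0.905 to 1.22), or 0.924 (0.786 to 1.08) without the block. The number of CP190 peaks per BEAF peak in interphase was therefore 1.07 (0.936 to 1.23) at the proximal ends and 1.94 (1.87 to 2.01) elsewhere.

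In mitosis, in the sum of the arms, dCTCF peaks were denser at the proximal ends than elsewhere, and CP190 and Su(Hw) peaks were sparser. Mitotic dCTCF had 196 proximal peaks, 24.3 per Mb against 18.1 per Mb, a ratio of 1.35 (1.16 to 1.56), and 1.21 (1.03 to 1.41) without the repeat block. Mitotic BEAF had 143 peaks, 17.8 per Mb against 20.0 per Mb, a ratio of 0.888 whose interval of 0.744 to 1.05 includes equal density. Mitotic CP190 had 185 peaks and a ratio of 0.75 (0.642 to 0.870), which became 0.597 (0.501 to 0.705) without the block. Mitotic Su(Hw) had 43 peaks and a ratio of 0.636 (0.456 to 0.865), or 0.510 (0.351 to 0.720) without the block.

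By density over the whole window, the sparse interphase CP190 peaks were a feature of 3 arms and not of 3R. The interphase CP190 ratio was 0.391 on 3L, 0.536 on 2L and 0.624 on X, but 0.992 (0.846 to 1.16) on 3R. The difference between arms was not tested. Set beside windows of the same length tiled along each arm, the proximal window held fewer interphase CP190 peaks than all 10 others of 2L, all 11 of 3L and all 10 of X, whereas on 3R 6 windows were lower and 6 higher. On 3L the proximal window had 34.5 CP190 peaks per Mb and the sparsest other window 78.3 per Mb. On X these values were 56.5 and 80.9 per Mb, and on 2L 44.3 and 55.7 per Mb. Interphase CP190 peaks per BEAF peak were still fewer on 3R, 1.48 (1.17 to 1.88) against 1.98 on the rest of that arm. The mitotic CP190 ratio was 0.448 on 3L, 0.571 on X and 1.24 on 2L, or 0.546 on 2L without the repeat block. On 3R it was 0.814 (0.597 to 1.09), and 10 of the 12 other windows were higher.

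BEAF and dCTCF differed from arm to arm. Interphase BEAF was denser at the proximal end of 2L (ratio 1.58, and 1.41 with an interval of 1.14 to 1.72 without the repeat block) and of 3R (1.33), level on 3L (1.00) and sparser on X (0.785). Interphase dCTCF had ratios of 1.43 on 2L, 1.28 on 3R, 0.966 on X and 0.607 on 3L, where the proximal window was below all 11 others. The 2L value for dCTCF rested on the repeat block and was 0.837 (0.569 to 1.19) without it. Mitotic dCTCF was denser in the proximal window than in every other window of 2L, 3R and X, with ratios of 1.54, 1.48 and 1.38. Without the block the 2L ratio was 0.967 (0.656 to 1.38). On 3L the ratio was 0.997 (0.692 to 1.40), and 6 other windows were lower and 5 higher. Outside the block the higher mitotic dCTCF density thus lay on 3R (1.10 to 1.97) and X (1.003 to 1.87). The mitotic BEAF ratio was 1.52 on 3R, 0.914 on 2L, 0.620 on 3L and 0.6 on X.

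**Figure D1:**
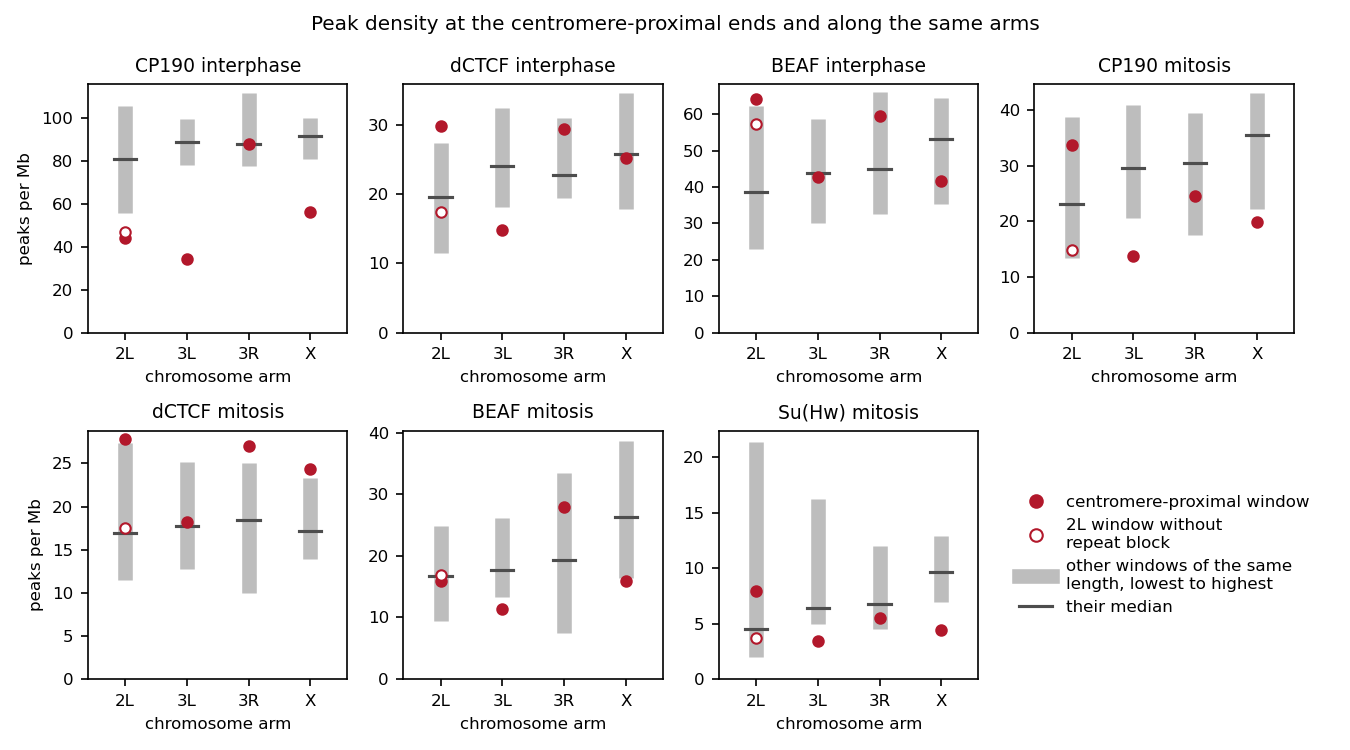
Peaks per Mb of each list (vertical axes) in the centromere-proximal window of each arm (red points), without the repeat block of 2L (open points), beside the lowest to highest (grey bar) and median (dark line) of the other windows of the same length on that arm. Interphase CP190 lies below the grey bars on 2L, 3L and X, at 44.3, 34.5 and 56.5 per Mb, and inside it on 3R, at 88 per Mb.

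Summed over the arms, CP190 counts fell bin by bin towards the centromere, while BEAF counts stayed level, but the single arms did not share this course. In bins of 500 kb counted from the proximal end and summed over the 4 arms, interphase CP190 had 68 peaks in the bin at the proximal end, then 93, 135 and 153 in the following bins. BEAF had 101, 106, 114 and 98 peaks in the same bins. CP190 peaks per BEAF peak thus went from 0.673 in that bin through 0.877 and 1.18 to 1.56. On 2L the most proximal bin held 4 CP190 peaks and 30 BEAF peaks, and the next bins 27, 14 and 44 CP190 peaks. On 3L CP190 changed in a step, with 11, 6 and 8 peaks and then 45, against 19, 16, 24 and 28 BEAF peaks. The CP190 counts were 18, 26, 45 and 25 on X, and 35, 34, 68 and 39 on 3R. The counts behind a single arm are small.

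BEAF was among the proteins called nearest the ends of 2L, 3L and X. The peak closest to the end of 2L was an interphase BEAF peak at 23008699 to 23009086, which overlapped a mitotic dCTCF peak and no CP190 peak. The peak closest to the end of 3L, at 24530210 to 24530633, was called for interphase BEAF alone. On X the closest peak was mitotic dCTCF at 22415362 to 22415960, with a score of 54.75, at an interphase BEAF peak that scored 2905.17. A second X peak of interphase BEAF, at 22408984 to 22409768, had a score of 3174.46 and lay 6.58 kb from the last peak end of the arm. It kept its peak in mitosis and overlapped an interphase CP190 peak with a score of 254.23. On 3R the peak nearest the centromere was dCTCF in interphase, at 12723 to 13522, with a score of 2537.85, and it overlapped a CP190 peak.

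**Figure D2:**
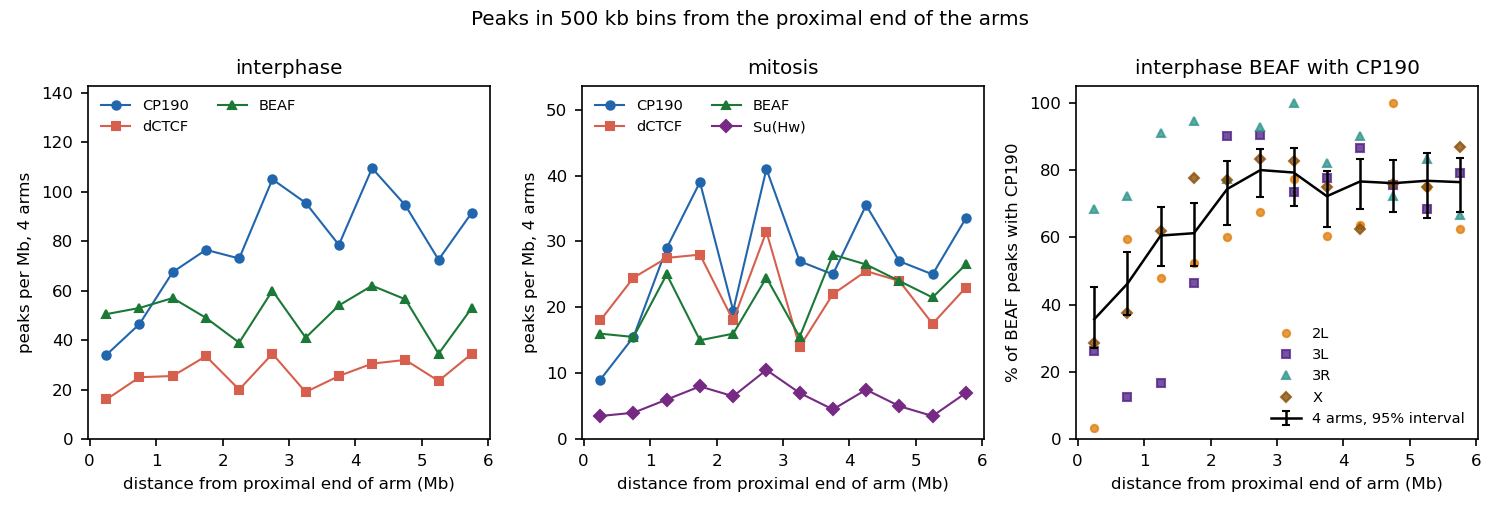
Peaks per Mb summed over the 4 arms in 500 kb bins by distance from the proximal end in Mb, for interphase (left) and mitotic (middle) lists, and the percentage of interphase BEAF peaks that overlap a CP190 peak (right, line with 95% Wilson intervals, and each arm as points). In the sum, interphase CP190 falls over the 4 most proximal bins while BEAF stays level, and the share of BEAF peaks with CP190 falls to 35.6% in the most proximal bin.

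A large share of the BEAF sites at the proximal ends had no CP190 peak. Of 419 interphase BEAF peaks, 214 overlapped interphase CP190, 51.1% against 75% on the rest of the arms, a difference of -23.9 percentage points (-28.9 to -19.0). Over all 4 arms 72.8% of interphase BEAF peaks did so. The share was 35.6% in the most proximal 500 kb, 46.2%, 60.5% and 61.2% in the following bins, and between 72.2% and 80% in the 8 bins beyond. In the most proximal bin of 2L, 1 of 30 BEAF peaks overlapped CP190.

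Here too 3R stood apart from the other arms. On 3R 97 of 119 proximal BEAF peaks overlapped CP190, 81.5% against 78.7% on the rest of that arm, a difference of 2.82 points (-5.41 to 9.26). The shares were 27.6% against 77.9% on 3L, 41.9% against 71.1% on 2L and 46.4% against 71.6% on X. The most proximal bin of 3R had 68.4% (52.5 to 80.9), within the 66.7% to 100% of the other bins of that arm. Proximal BEAF peaks had lower scores than the rest, with a median of 188.94 against 362.055, so the share was also taken within quintiles (5 equal classes) of the BEAF score. It was lower at the proximal ends by between 20.4 and 32.5 points in the 4 lower quintiles, whereas in the top quintile it was 94.0% (63 of 67) against 94.3%. At the shares of the rest within each quintile, 71.9% of the proximal BEAF peaks would have overlapped CP190.

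BEAF peaks without CP190 had low scores and were less often called in mitosis, at the proximal ends as elsewhere. Outside the repeat block, the 184 proximal BEAF peaks without CP190 had a median score of 128.99 and 20.1% were retained, and the 214 with CP190 had a median score of 537.21 and 45.8% were retained. On the rest of the arms these shares were 21.9% and 50.8%. The highest scoring proximal BEAF peak that lost its call in mitosis, at 22888021 to 22888988 on 2L with a score of 1416.94, was in no other list. A peak of BEAF alone made up 14.0% of the merged proximal regions (102 of 728) and 5.14% of those on the rest of the arms, while CP190 alone made up 20.7% and 32.7%.

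dCTCF sites also had CP190 less often. Of 200 interphase dCTCF peaks 121 overlapped interphase CP190, 60.5% against 77.0%, a difference of -16.5 points, with 75.6% over all 4 arms. This was -7.04 points (-14.5 to -0.439) without the repeat block, which has no interphase CP190 peak. On 3R the share was 81.4% against 79.6%. Mitotic dCTCF peaks overlapped interphase CP190 at 91 of 196 proximal sites, 46.4% against 74.3% and 71.3% over all 4 arms, and at 52.6% without the block. On 3R that share was 75.9% against 78.1%, and on 3L, 2L and X it was 27.0%, 33.9% and 42.9%.

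Seen from CP190, the share with BEAF was higher at the proximal ends in the sum, but the arms differed. Of the 449 interphase CP190 peaks at the proximal ends, 45.7% overlapped BEAF against 38.7%, a difference of 6.96 points (2.28 to 11.7), where the share over all 4 arms was 39.1%. It was higher on 2L, by 20.9 points (10.3 to 31.0), and on 3R, by 14.9 points (7.22 to 22.3). On 3L the difference was -5.16 points (-15.3 to 6.67) and on X -9.67 points (-17.9 to -0.359). For CP190 at dCTCF the shares were 25.4% and 20.8%, with 21.1% over all. BEAF and dCTCF met each other slightly less often, since 86 of 419 interphase BEAF peaks overlapped interphase dCTCF, 20.5% against 26.1% (25.5% over all). BEAF overlapped mitotic dCTCF at 36.0% against 30.4% (30.9% over all), or 32.7% without the block.

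In mitosis CP190 was also less frequent at BEAF sites, but with another pattern by arm, and the values for dCTCF and Su(Hw) depended on the repeat block. Of 143 mitotic BEAF peaks 43 overlapped mitotic CP190, 30.1% against 43.0% and 42.1% over all 4 arms. Mitotic dCTCF overlapped mitotic CP190 at 59 of 196 peaks, 30.1% against 34.7% with 34.2% over all, and at 20.8% without the block. Of 185 mitotic CP190 peaks 78 overlapped mitotic dCTCF, 42.2% against 20.9% with 22.2% over all, but without the block the share was 26.2% and the difference of 5.34 points had an interval of -1.32 to 13.2.

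Summed over the arms, Su(Hw), the zinc-finger protein of the gypsy insulator, met dCTCF more often at the proximal ends than elsewhere. Of its 43 mitotic peaks 20 overlapped mitotic dCTCF, 46.5% against 13.0% and 14.8% over all 4 arms. Outside the repeat block it was 11 of 34, 32.4%, a difference of 19.4 points (5.88 to 36.3). By arm it was 9 of 16 on 2L, where all 9 lay in the block, 2 of 7 on 3L, 3 of 11 on 3R and 6 of 9 on X. The intervals of the differences on 3L and 3R included 0, so outside the block the higher share rested mainly on X. With interphase dCTCF the overlap was 19 of 43, 44.2% against 18.6% (19.9% over all), and 41.2% without the block. With mitotic CP190 it was 31 of 43, 72.1% against 59.0% (59.7% over all), a difference of 13.1 points with an interval of -2.11 to 24.8. The share with interphase CP190 was 62.8% against 76.1% (75.4% over all), or 79.4% without the block. The share with mitotic BEAF was 14.0% against 12.1% (12.2% over all), and the interval of that difference was -5.93 to 15.4.

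**Figure D3:**
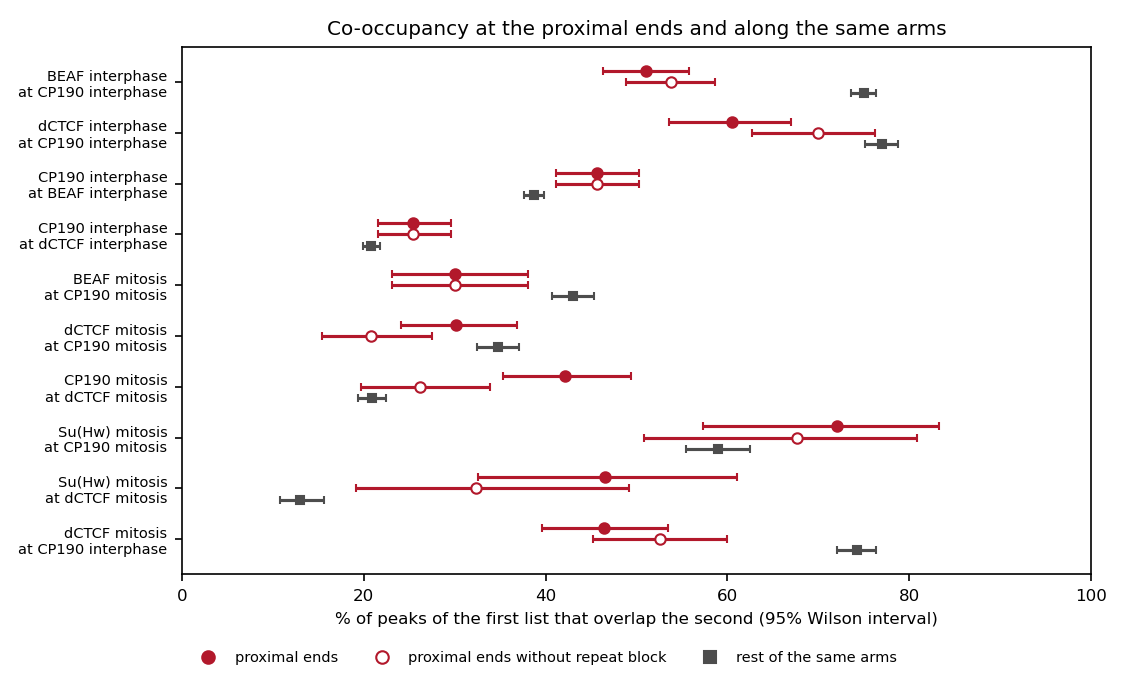
Percentage of the peaks of 1 list that overlap another list by at least 1 bp, at the proximal ends (filled circles), the proximal ends without the repeat block (open circles) and the rest of the same arms (squares), with 95% Wilson intervals. Interphase BEAF overlaps CP190 at 51.1% against 75%, and mitotic Su(Hw) overlaps mitotic dCTCF at 46.5% against 13.0%.

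In the sum of the arms, retention in mitosis at the proximal ends was lower than on the rest for BEAF. The intervals of the differences for CP190 and for dCTCF as a whole included 0. For dCTCF the sign varied with the score of the sites and with the repeat block. CP190 kept 121 of 449 interphase peaks, 26.9% against 30.9%, with 30.7% over all 4 arms. The difference of -3.96 points had an interval of -7.99 to 0.447. By quintile of score the widest difference was in quintile 4, where 20 of 91 peaks were retained against 31.7% on the rest, with an interval of the difference from -17.3 to 0.107 points. Per arm the CP190 share lay between 24.4% on 3R and 29.2% on 2L.

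BEAF kept fewer of its peaks at the proximal ends in the sum of the arms, and its proximal peaks also had lower scores. It kept 135 of 419, 32.2% against 43.6% with 42.5% over all, a difference of -11.4 points (-15.9 to -6.51). At the retention of the rest within each quintile of the interphase score, 33.1% would have been kept. In the top quintile all 67 proximal BEAF peaks were retained, and on the rest 828 of 829 (99.9%). In the quintile below it 47 of 56 proximal peaks were retained, 83.9% against 88.3%. On 3R, where BEAF peaks were dense and mostly with CP190, 43.7% were kept, and on 2L, 3L and X 24.0%, 26.4% and 34.5%.

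dCTCF kept 79 of 200 peaks, 39.5% against 33.7% with 34.2% over all. All 27 dCTCF peaks of the repeat block lay under its wide mitotic peaks, and without them 52 of 173 were kept, 30.1%, so that the difference went from 5.82 points (-1 to 13.0) to -3.62 points. The widest difference was in the top quintile by score, where 9 of 28 proximal peaks were retained, 32.1% against 60.3% (263 of 436), a difference of -28.2 points (-43.1 to -9.08). By arm 0 of 2 were retained on 2L, 0 of 5 on 3L, 4 of 11 on 3R and 5 of 10 on X. Of these 28 sites 26 overlapped interphase CP190, 92.9% against 97.5% on the rest, and 19 overlapped mitotic CP190, 67.9% against 76.8%, and the intervals of both differences include 0. In quintiles 1 and 2 the proximal share was higher with the block included, at 57.9% against 39.9% (interval of the difference 1.59 to 32.9 points) and 52.6% against 37.6% (1.45 to 28.2 points). Without the block these shares were 38.5% and 43.8%, and both intervals included 0. Among equal numbers of the highest scoring interphase and mitotic dCTCF peaks the difference was 2.47 points (-4.87 to 10.5).

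Examples of both outcomes lay close together. On 3L the dCTCF peaks at 22933250 to 22933927 and at 22951075 to 22951852 both had the tied score of 3100 in interphase and no mitotic dCTCF peak. Both overlapped a CP190 peak in interphase and in mitosis. On 3R the dCTCF peak at 794750 to 795849, with a score of 3100, was not called in mitosis, while its neighbour at 796011 to 797065, with the same score, overlapped a mitotic dCTCF peak with a score of 74.41. Scores of different lists say nothing of binding in one relative to another.

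**Figure D4:**
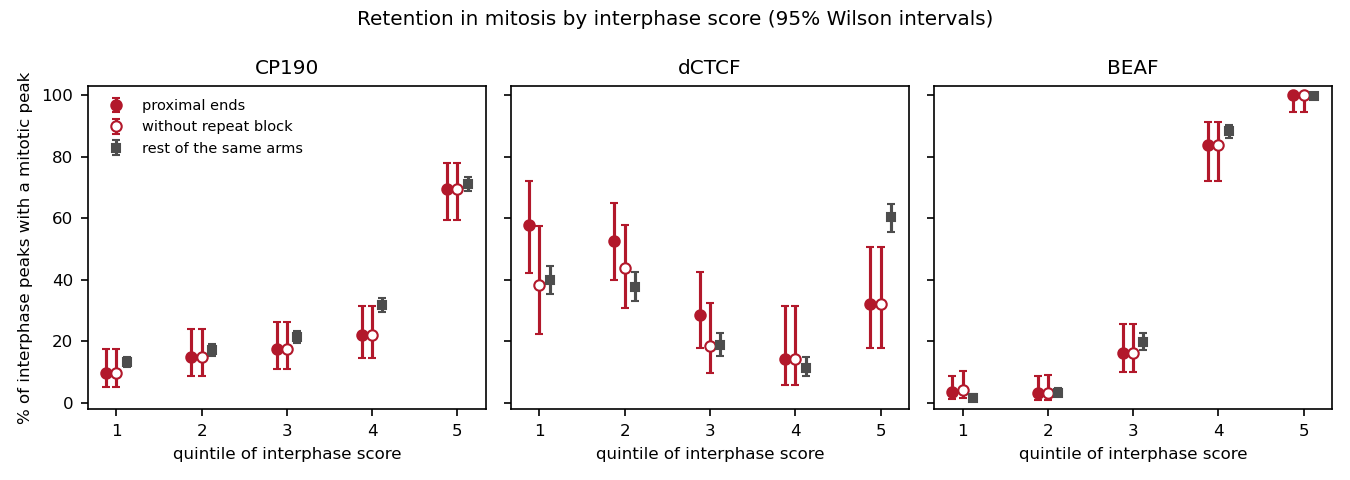
Percentage of interphase peaks retained in mitosis, by quintile of the interphase score from lowest (1) to highest (5), at the proximal ends (filled circles), without the repeat block (open circles) and on the rest of the arms (squares), with 95% Wilson intervals. The lowest CP190 point beside the rest is in quintile 4, with 20 of 91 peaks against 31.7%, and dCTCF in the top quintile is at 32.1% against 60.3%.

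Mitotic CP190 peaks of the proximal ends without an interphase call lay mainly in the repeat block, and for dCTCF the share with an interphase call depended on the block and on 3L. Mitotic dCTCF overlapped an interphase dCTCF peak at 68 of 196 sites, 34.7% against 41.5% with 40.7% over all, a difference of -6.76 points with an interval of -13.5 to 0.536. Without the block it was 27.7%, a difference of -13.7 points (-20.3 to -6.22), and without 3L the difference was 0.169 points (-7.65 to 8.40). The 128 proximal dCTCF peaks called in mitosis alone included 125 outside the block, with scores from 50.60 to 1175.99 and a median of 92.14. Mitotic CP190 overlapped an interphase CP190 peak at 123 of 185 sites, 66.5% against 89.5% with 88% over all, but 40 of the 62 without one lay in the block. Outside it the share was 84.8%, a difference of -4.67 points (-11.5 to 0.411). Mitotic BEAF overlapped interphase BEAF at 139 of 143 sites, 97.2% against 99.4% with 99.3% over all.

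The repeat block lay on 2L at 21416875 to 21539614, 1.47 Mb from the last peak end of the arm. It was a run of 23 mitotic dCTCF peaks, each between 3214 and 4273 bp wide with a median of 4126 bp, whose scores lay between 365.72 and 1269.16. Of the 22 distances between neighbouring starts, 21 lay between 4.66 and 5.45 kb with a median of 5.04 kb, and the remaining distance was 14.0 kb. It was the only run of at least 5 mitotic dCTCF peaks of 3 kb or more with starts no more than 15 kb apart on the 4 arms.

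Mitotic CP190 peaks took like positions from unit to unit, and the interphase and mitotic lists of CP190 and BEAF differed in whether they had any peak in the block. Mitotic CP190 had 40 peaks in the block, in all 23 units, and 17 units had a pair of them. Their midpoints fell into 2 narrow ranges, 21 peaks at 1.53 to 2.21 kb and 19 peaks at 2.68 to 3.38 kb from the start of the unit. Interphase CP190 had 0 peaks in the block, of 449 at the proximal ends, which allows a share of up to 0.668%. This limit is 3 divided by the number of peaks and not a Wilson limit. Interphase dCTCF had 27 peaks in 20 of the units, 21 of them with midpoints at 0.725 to 2.19 kb (median 2.09 kb) and 6 at 2.76 to 3.16 kb, with a median width of 618 bp. Interphase BEAF had 21 peaks in 16 of the 23 units, more widely placed, with 12 at 0.422 to 2.24 kb and 9 at 2.87 to 3.44 kb. Mitotic BEAF had 0 of its 143 proximal peaks there, which allows up to 2.10% by the same rule. Su(Hw) had 9 peaks in 9 units, 2 at 1.83 to 1.99 kb and 7 at 2.92 to 3.48 kb.

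Within each list, the median score of the block was set beside that of the other proximal peaks. It was 712.64 against 101.49 for mitotic dCTCF and 95.55 against 104.97 for mitotic CP190. It was lower for interphase dCTCF, at 74.49 against 167.15, for interphase BEAF, at 65.59 against 228.505, and for Su(Hw), at 64.49 against 84.595. The protein-coding histone genes of the fly lie in a tandem array on 2L, and the RefSeq gene table of release 6 lists 111 of them in an unbroken row, among them 23 His1 genes. Positions were not carried from release 6 to release 5, so the block was not assigned to those genes. The sources used here do not state how reads that match several copies of a repeat were placed, and its part in these peaks was not tested.

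**Figure D5:**
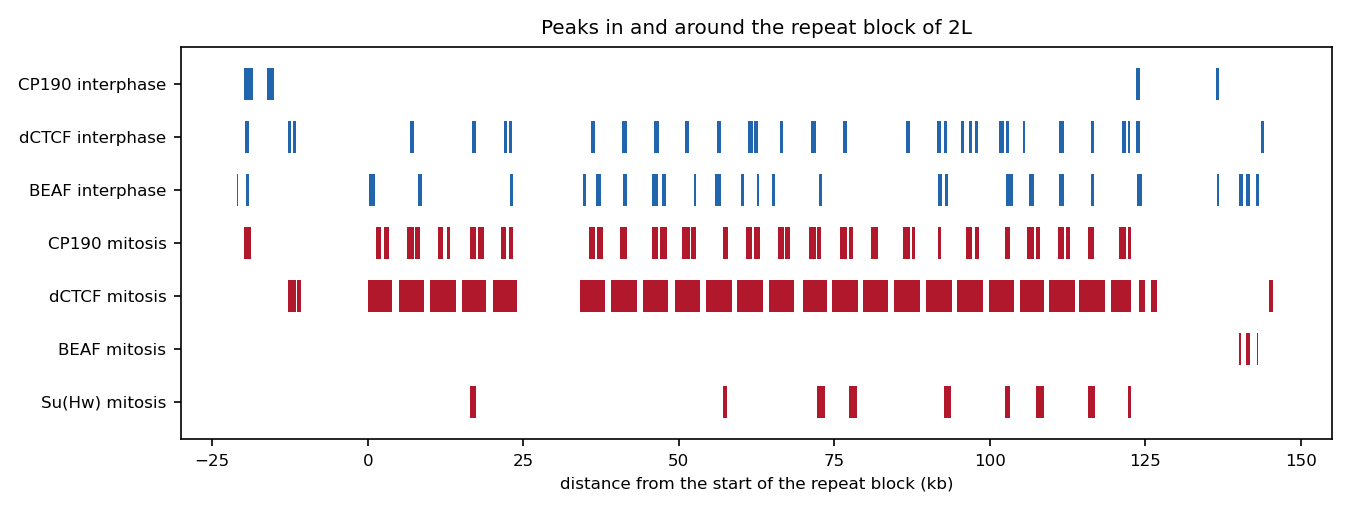
Peaks of each list (rows) in and around the repeat block of 2L, drawn to scale by distance in kb from the start of the block, with interphase lists in blue and mitotic lists in red. The 23 wide mitotic dCTCF peaks follow each other at about 5.04 kb, mitotic CP190 has 40 peaks on them, and interphase CP190 and mitotic BEAF have 0.

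Peak widths at the proximal ends were near those of the rest, apart from wide mitotic dCTCF domains. The median width of interphase CP190 peaks was 621 bp (592 to 650) against 593 bp, of dCTCF 594.5 bp against 614.5 bp and of BEAF 481 bp against 502 bp. In mitosis the medians were 617 bp against 560 bp for CP190 (588 bp without the block), 953.5 bp against 885 bp for dCTCF (907 bp without it), 551 bp against 568 bp for BEAF and 902 bp against 831.5 bp for Su(Hw). Mitotic dCTCF peaks of at least 3 kb were 38 of 196, 19.4% against 4.87%. Without the block they were 15 of 173, 8.67%, a difference of 3.80 points (0.256 to 9.02), and 9 of these 15 lay on X.

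The wide domains of X differed among themselves. The widest, at 21565491 to 21574951, spanned 9461 bp with a score of 70.43, and those at 21406690 to 21415794 and 21512167 to 21520157 scored 64.85 and 59.05. All of these 3 overlapped an interphase BEAF peak. Of all proximal mitotic dCTCF peaks 118 of 196 did so, 60.2% against 67.0% on the rest of the arms. Whether wide peaks overlap BEAF more often was not tested, so the 3 overlaps do not set these domains apart. In contrast to the low scores of these 3, the domain at 22022204 to 22028813, of 6610 bp, scored 2814.29. It overlapped interphase dCTCF and BEAF but no CP190 peak. The domain at 21966605 to 21972131 scored 1175.99, had no interphase dCTCF peak, and held a Su(Hw) peak 5047 bp wide and CP190 peaks of both phases.

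When all lists were merged, the proximal ends had 728 occupied regions, 49.0% of them in a single list against 46.8% on the rest and 47% over all 4 arms. Regions in at least 4 lists were 16.9% against 18.3%, with 18.2% over all, and those in at least 6 lists were 14 of 728, 1.92% against 2.29% with 2.26% over all. The intervals of these 3 differences include 0, but without the repeat block the single-list share was 50.6%, a difference of 3.84 points (0.0173 to 7.65), and that of at least 4 lists 14.9%, a difference of -3.39 points (-5.96 to -0.473). Single-list regions were most frequent on 3L, 101 of 163, and regions in at least 4 lists were 47 of 213 on 3R but 10 of 163 on 3L. Neighbouring regions were a median of 4.08 kb apart against 4.44 kb, but gaps of 100 kb or more took 5.68% of the proximal length and 2.00% of the rest. These were only 4 gaps at the proximal ends and 15 on the rest. Of the 4, 2 lay on 3L, 1 on 2L and 1 on X, where it was 100.755 kb, and 3R had 0. The longest was 135 kb on 3L, from 23395061 to 23530239.

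A small group of merged proximal regions held peaks of every list, although peaks joined in a region need not all overlap each other. Regions in all 7 lists were 5 of 728 at the proximal ends and 14 of 9312 on the rest. These were 0.687% and 0.150%, a difference of 0.536 points (0.130 to 1.45). This class was not among those planned, rests on few regions and was not taken under the alternatives. Regions in at least 5 lists, also not planned, went the other way, 7.55% against 8.24%, a difference of -0.682 points (-2.48 to 1.54). The region at 20630893 to 20632057 on X had the tied score of 3100 for CP190 and dCTCF in both phases and 2998.69 for interphase BEAF. The region at 31728 to 34888 on 3R lay 33.3 kb from the proximal end, with scores of 1175.63 for interphase BEAF and 253.94 for Su(Hw). The other 3 were at 897512 to 899258 on 3R, 21233602 to 21234887 on X and 22887063 to 22888603 on 3L. In the 3L region the mitotic BEAF peak did not overlap an interphase BEAF peak. The highest scoring proximal Su(Hw) peak, at 788324 to 789090 on 3R with a score of 1150.57, overlapped CP190 in both phases and interphase dCTCF and BEAF.

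The nearest peak on either side of each threshold was a CP190 peak. The CP190 lists were also long, with 8318 interphase and 2936 mitotic peaks on these arms. All 7 lists together had 1635 proximal peaks and 20970 on the rest. On X the last peak outside was a mitotic CP190 peak at 20395882 to 20396560, at a site called in 6 lists, and the closest peak inside was an interphase CP190 peak at 20454257 to 20454730 with a score of 152.69, which overlapped a dCTCF peak. On 2L interphase CP190 peaks lay at 20976655 to 20977280 outside and 21051738 to 21052304 inside, with scores of 367.52 and 668.40. On 3L they lay at 22490398 to 22491230 and 22548924 to 22549342, with scores of 965.64 and 87.90. On 3R the closest peaks were mitotic CP190 at 1996454 to 1996928 inside, with a score of 642.28, and interphase CP190 at 2016022 to 2016745 outside, with a score of 542.33.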

How the data were processed

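Per the submitters' processing notes, the aligner was Bowtie 0.12.5. The authors deposited 1 peak list per library with a start, an end and a score for each peak. The deposited scores start at 50 and many are tied at 3100. The sources used here do not state what the score measures, the peak caller's threshold, any control library or the genome build. Scores were used only within a list. Positions are 1-based. No genome of release 5 was used, so peaks were not assigned to genes and no sequences are printed.

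The proximal windows ran from the thresholds to the highest peak end over the 7 lists, or to base 1 on 3R. Distances from the proximal end, and the bins, were measured from these same points. Densities were compared as ratios with exact conditional binomial intervals, shares with Wilson and Newcombe intervals, and medians with order-statistic intervals, all at 95% and for counting error only. Quintiles of the score were set over the 4 arms. Read depth is unknown. Chromatin had been sonicated to 200 to 1000 bp and libraries cut from a gel at 200 to 300 bp, per the labels' protocols, which limits how closely a peak places a site.

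Calculations used Python 3.11.15, NumPy 2.4.6, SciPy 1.17.1 and matplotlib 3.10.9. Overlaps counted with bedtools 2.31.1 gave the same number in all 42 cases compared. The intervals of density ratios, shares and differences of shares covered the known value in 95 to 96 of 100 simulated draws. Those draws placed peaks uniformly at random and retained them independently. The peaks here cluster, as in the repeat block, so the draws check the code and not the coverage for these data. Intervals of medians were not simulated. Named peaks were the 3 highest scoring per list and retention class, the 3 widest mitotic dCTCF and Su(Hw) peaks, the regions in most lists and the peaks next to thresholds and arm ends, and the text gives examples of these. The wide peak at 22022204 on X is among the highest scoring. The members, lists and comparisons were chosen with earlier results of these data known. The alternatives were a score of at least 100, a reciprocal overlap of 50%, 400 bp around each midpoint, equal numbers of peaks, each arm left out, windows changed by 500 kb and the distal end of each arm. The repeat block, its removal and the split of positions within its units at 2.3 kb were added after the data were seen. The classes of merged regions in at least 5 lists and in all 7 lists were not planned.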

Additional observations from a re-analysis of the deposited data

Results flagged for a closer look

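The density ratios of proximal window over rest lay on opposite sides of 1 on different arms, with intervals that exclude 1, in 3 lists. For interphase dCTCF the ratio was 1.43 on 2L and 0.607 on 3L. For interphase BEAF it was 1.58 on 2L and 1.33 on 3R against 0.785 on X. For mitotic BEAF it was 1.52 on 3R against 0.62 on 3L and 0.6 on X. The differences between arms were not tested.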

How the results depend on the processing

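Of 266 values for 29 results under the alternatives, 221 lay inside the interval of the value given in the report and 45 outside. No paired analysis was possible because each group is 1 library, and for the same reason leaving out replicates was not an option.

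Without 2L, the density ratio was 1.03 for interphase BEAF and 0.611 for mitotic CP190, the width difference of mitotic CP190 was 14.5 bp, dCTCF retention differed by -4.09 points, mitotic peaks with an interphase call by -7.63 (CP190) and -15.7 points (dCTCF), interphase dCTCF with CP190 by -6.74 points, and mitotic dCTCF with CP190 by -13.7 points. Without 3L, the interphase CP190 ratio was 0.719, BEAF with CP190 differed by -16.9 points, and regions in 1 list and in at least 4 lists turned to -1.95 and 1.67 points. Without 3R, the ratios were 0.517 for interphase CP190 and 0.697 for mitotic BEAF, the width difference of mitotic dCTCF was 189 bp, BEAF retention differed by -16.9 points, mitotic CP190 with an interphase call by -30.7, and co-occupancy with CP190 by -34.5 (BEAF) and -24.2 points (dCTCF), with CP190 at BEAF at 1.77 points. Without X, the interphase BEAF ratio was 1.29 and CP190 at BEAF 12.5 points.

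Without the repeat block, the mitotic CP190 ratio was 0.597, mitotic peaks with an interphase call differed by -4.67 (CP190) and -13.7 points (dCTCF), dCTCF retention turned to -3.62 points, and dCTCF with CP190 differed by -7.04 points in interphase and -13.9 in mitosis. With scores of at least 100, the ratios were 1.01 for interphase BEAF and 0.622 for mitotic CP190, the width differences 63.5 bp (interphase CP190) and 487.5 bp (mitotic dCTCF), dCTCF retention -1.75 points, mitotic peaks with an interphase call -11.2 (CP190) and -15.3 points (dCTCF), and interphase dCTCF with CP190 -6.88 points. With a reciprocal overlap, dCTCF retention was -11.4 points, and mitotic peaks with an interphase call -18.7 (dCTCF) and -8.40 points (BEAF). With equal numbers of peaks BEAF retention was -5.05 points. With shortened windows the CP190 ratios were 0.571 in interphase and 0.607 in mitosis. Against the distal ends the ratios were 1.03 for interphase BEAF, 0.521 for mitotic CP190 and 0.276 for Su(Hw). The cause of these shifts was not tested.

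The dCTCF retention difference of 5.82 points also turned to -0.585 points with 400 bp around each midpoint, and its direction depended on the settings named. Depth is unknown and limits all absences, and the windows end at the last peak, not at the end of the assembled arm. The 43 Su(Hw) peaks give the widest intervals.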
